A study of Mus musculus with 9 samples.

Results

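Small nucleolar RNA (snoRNA) genes were examined in splenic follicular B cells, naive B cells that circulate between blood and lymphoid follicles, of mice with 3 heavy chain genotypes. The members are the genes whose symbol starts with Snord (box C/D class) or Snora (box H/ACA class) and that were named alone by a probe set. There were 73 of them among 22180 named genes. The tested members were selected on their signal: 60 exceeded the array's median log2 value, taken over every probe set, on at least 3 of the 9 arrays. These were 38 of 47 C/D genes and 22 of 26 H/ACA genes, out of 12170 genes tested. Where a gene had several probe sets, the brightest over the 9 arrays stood for it.

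The groups were Igh ε/ε mice (ε is the heavy chain constant region of IgE), Igh γ1/γ1 mice (γ1 is that of IgG1) and Igh wild-type mice, all polyclonal, all aged 6 to 12 weeks after birth, and all with VJk5 in their genotype label, which the labels do not explain. Each genotype had 3 arrays. The series concerns B cell receptor dosage by heavy chain isotype and what becomes of the B cells. Its design text speaks of independent replicates but names no animals, and the p-values therefore cover only how these samples vary.

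SnoRNAs are short RNAs of the nucleolus, where ribosomal RNA is made and trimmed. A C/D snoRNA, bound by Fbl, Nop56, Nop58 and Snu13, pairs with a target RNA and marks the base where fibrillarin (Fbl) methylates the ribose. An H/ACA snoRNA, bound by Dkc1, Nhp2, Nop10 and Gar1, marks a uridine that dyskerin (Dkc1) turns into pseudouridine. Most mammalian snoRNAs lie in introns of a host gene and are freed when the excised intron is opened and trimmed from its ends, so that 1 transcript can give both a spliced RNA and a snoRNA. Resting follicular B cells make few ribosomes until they are activated.

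Of the 60 tested members, 57 lay inside another gene of the GRCm38.p6 gene table: 41 in protein-coding genes, 17 of these ribosomal protein genes, and 16 in long noncoding RNA genes. The 3 without an enclosing gene were Snord118 (U8) and Snord13 (U13), which act in ribosomal RNA processing, and Snord89. The snoRNA genes measured 48 to 221 bases in the C/D class (median 71.5) and 56 to 205 bases in the H/ACA class (median 122). The snoRNA sequences were not used here. Their hosts' start sites are shown instead, because an intronic snoRNA is usually transcribed from its host's promoter. Many snoRNA hosts start within a run of C and T, the terminal oligopyrimidine tract of genes of the translation machinery. The stretches below are RefSeq promoter sequences on GRCm38.p6, from 30 bases before the annotated start to 20 bases from it onward, on the host's strand, with the longest run of C and T found within 10 bases of the start in capitals. They are the hosts with the most tested members (Snhg12 with 4 and 2410006H16Rik with 3) and every matched host of a member that passed in some comparison (Snhg12 again, Ipo7, Rpl37, Rpl39, Eif5, Rps3a1 and Snx5).
Snhg12 (chr4:132308648-132308697, plus strand): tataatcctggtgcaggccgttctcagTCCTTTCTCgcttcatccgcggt
2410006H16Rik (chr11:62602847-62602896, plus strand): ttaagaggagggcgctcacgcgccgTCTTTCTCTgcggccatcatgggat
Ipo7 (chr7:110018285-110018334, plus strand): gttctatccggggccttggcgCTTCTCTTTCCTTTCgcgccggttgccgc
Rpl37 (chr15:5116583-5116632, plus strand): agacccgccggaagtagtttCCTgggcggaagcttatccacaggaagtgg
Rpl39 (chrX:37085203-37085252, minus strand): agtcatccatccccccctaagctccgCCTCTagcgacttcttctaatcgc
Eif5 (chr12:111538071-111538120, plus strand): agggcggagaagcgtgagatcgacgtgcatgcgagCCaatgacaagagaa
Rps3a1 (chr3:86142649-86142698, minus strand): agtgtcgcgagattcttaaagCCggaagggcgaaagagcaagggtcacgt
Snx5 (chr2:144270553-144270602, minus strand): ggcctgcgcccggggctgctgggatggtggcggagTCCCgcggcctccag

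The runs were 9 bases in Snhg12 and 2410006H16Rik, 15 in Ipo7, 3 in Rpl37, 5 in Rpl39, 2 in Eif5 and Rps3a1 and 4 in Snx5. In Rpl37 the run goes on past the edge of that window and is 6 bases long in full. In Rpl39 another run of C and T starts inside the window after the marked one. It goes on past the window's edge and is longer in full than the marked run. A run of at least 6 bases that are each C or T, on the host's strand and within 10 bases of the start, was found for 16 of the 37 hosts in the promoter table (43.2%) and for 23.0% of all 27025 genes in it. Of the members' 46 hosts, 9 were not matched, among them Snhg6. A match describes letters only.

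The arrays read a signal per probe set, and the levels of different probe sets are not set against each other. Mean levels over the 9 arrays ran from 3.41 to 9.41 for the tested C/D genes (median 5.78) and from 3.74 to 9.27 for the tested H/ACA genes (median 5.60), where the median of all genes tested was 4.90. The medians of all probe sets lay between 3.53 and 3.69. These levels chose the members and are given as a description. On all 9 arrays 43 members lay above the median, 17 did so on 3 to 8 arrays and 3 on exactly 3. Just inside the filter stood Snord111 and Snord66, whose value of rank 3 among the 9 arrays lay 0.05 and 0.07 above the median. Just outside stood Snora35 and Snora2b, at -0.15 and -0.09. The 13 genes below the filter, 9 C/D and 4 H/ACA, were not tested.

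Of 10 B cell markers, the 8 with a probe set of their own lay above the array median on every array. At most 1 of 7 T cell markers did so on any array. By array, so did 6 to 12 of 12 macrophage markers and 3 or 4 of 6 plasma cell markers. Among 6 neutrophil markers 1 or 2 did, and likewise among 3 erythroid markers. This count alone therefore does not establish the B cell label. Macrophage markers were not even across arrays. Over 12 such genes the summed linear signal was 2306 on ε/ε replicate 1, 400 on ε/ε replicate 2, 249 on ε/ε replicate 3, and 166 to 201 on the other 6 arrays. Over 6 plasma cell markers the sum was 187 to 258 on the ε/ε arrays and 135 to 175 on the others. Of the 3 of these that were tested 0 passed, and Xbp1 differed by 0.96 between ε/ε and wild-type (adjusted p = 0.0559). The part of plasma cell markers in the results was not tested. Xist read 5.25 on ε/ε replicate 1 and 4.53 on γ1/γ1 replicate 1, against 10.37 to 10.79 elsewhere. In bulk RNA, fewer cells of a type and less RNA per cell cannot be told apart.

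Against wild-type, ε/ε cells differed in 7 of the 60 tested snoRNA genes, 2 higher and 5 lower, in limma's test at an adjusted p under 0.05. That is 11.7% of the members, where 6.34% of all 12170 genes were called (2.33% higher and 4.02% lower). The 2 that rose, Snora44 and Snora28, are H/ACA RNAs. Of the 5 that fell, Snord87, Snord72, Snord73b and Snord99 are C/D RNAs and Snora69 is an H/ACA RNA. The C/D class thus had 0 higher and 4 lower of 38, and the H/ACA class 2 higher and 1 lower of 22. The members' choice was made with earlier results known, and the difference between the classes was not tested. Without wild-type replicate 2, or without wild-type replicate 3, 1 of the 7 was still called, Snora44. Of all genes tested, 1.53% and 1.73% were called in these fits.

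**Figure D1:**
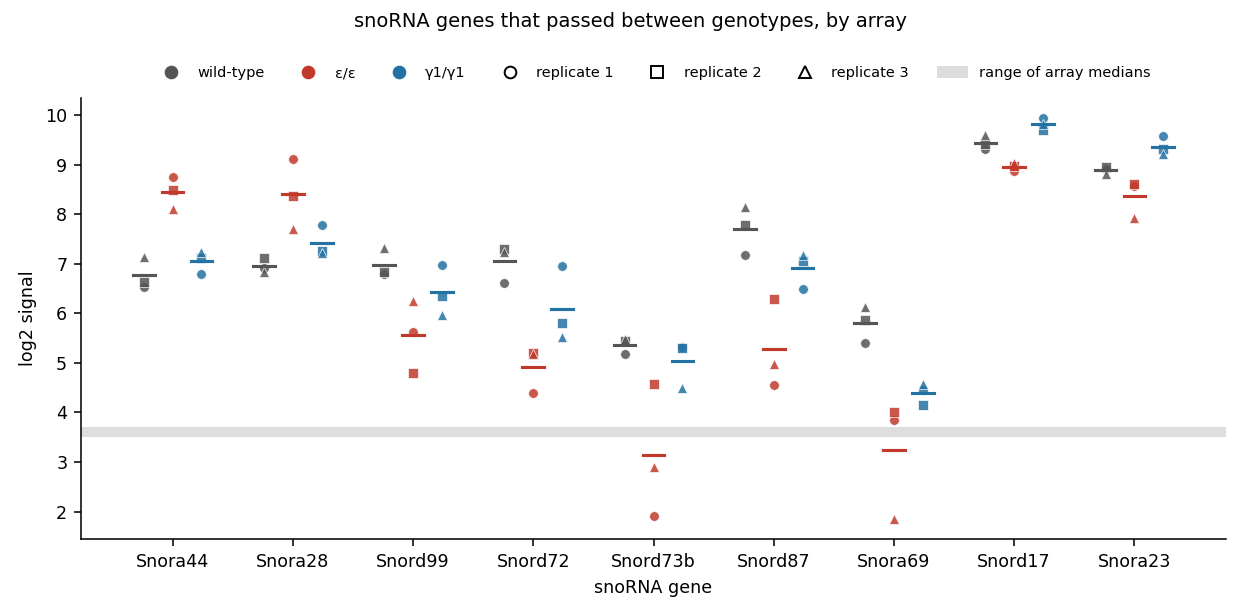
Log2 signal (vertical axis) of the 9 snoRNA genes that passed in at least 1 comparison of genotypes (horizontal axis), 1 point per array, with bars at the mean of 3 arrays and a grey band for the range of the array medians, 3.53 to 3.69. Snora44 and Snora28 sit higher on the ε/ε arrays than on the wild-type arrays, and the ε/ε means of Snord73b and Snora69 lie below the band.

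Snora44 guides a pseudouridine of the small-subunit ribosomal RNA. It read 8.74, 8.48 and 8.10 on the ε/ε arrays, 6.79, 7.11 and 7.24 on the γ1/γ1 arrays, and 6.52, 6.62 and 7.14 on the wild-type arrays. The ε/ε arrays all lay above the other 6, and the γ1/γ1 and wild-type arrays overlapped. The ε/ε mean of 8.44 ± 0.32 (SD, n = 3) was higher than the wild-type mean of 6.76 ± 0.33 by 1.68 (SE 0.22, 3.20-fold, adjusted p = 0.00397). This call held under all 21 alternatives, with adjusted p between 0.00238 and 0.0248.

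Snora28 also guides a pseudouridine of the small subunit, and lies in Eif5, a translation initiation factor. It read 9.11, 8.37 and 7.71 in ε/ε, 7.78, 7.25 and 7.21 for γ1/γ1, and 6.90, 7.11 and 6.84 in wild-type cells. Its ε/ε arrays were the widest group, and all lay above wild-type. The ε/ε mean was higher than wild-type by 1.45 (SE 0.31, 2.73-fold, adjusted p = 0.0238). The call was lost without ε/ε replicate 2 or any 1 wild-type array, with adjusted p up to 0.0908.

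Snord87, a C/D guide for the large-subunit ribosomal RNA inside the noncoding gene Snhg6, read 4.55, 6.29 and 4.97 in ε/ε, 6.50, 7.06 and 7.18 for γ1/γ1, and 7.17, 7.78 and 8.13 in wild-type cells. The ε/ε arrays lay below all others. The mean fell by 2.42 on the log2 scale against wild-type (SE 0.41, 5.35-fold lower, adjusted p = 0.0115). Snord72, a large-subunit guide inside the ribosomal protein gene Rpl37, read 4.39, 5.19 and 5.17 in ε/ε, 6.96, 5.80 and 5.52 for γ1/γ1, and 6.61, 7.30 and 7.23 in wild-type cells. Again no ε/ε array reached either other group, and γ1/γ1 replicate 1 lay within the wild-type range. The mean fell by 2.13 (SE 0.37, 4.37-fold lower, adjusted p = 0.0120). Both calls were lost without wild-type replicate 2 or 3, with adjusted p up to 0.0557 for Snord87 and 0.0618 for Snord72.

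Snora69, an H/ACA RNA inside the X-linked ribosomal protein gene Rpl39, read 3.84, 4.02 and 1.85 in ε/ε, 4.46, 4.14 and 4.57 for γ1/γ1, and 5.41, 5.87 and 6.13 in wild-type cells. The 3 genotypes did not overlap. The ε/ε mean of 3.23 ± 1.21 lay below the array medians. It fell by 2.57 on the log2 scale from wild-type (SE 0.48, adjusted p = 0.0153). ε/ε replicate 3 was lower than its partners by more than the spread of either other group. The call was lost when wild-type replicate 2 or 3 was left out (highest adjusted p 0.0687). Among the 7 arrays of high Xist alone the fall was 2.87 (adjusted p = 0.0376).

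Snord73b lies beside its relative Snord73a in Rps3a1, another ribosomal protein gene, and both belong to the U73 snoRNAs, which guide methylation of the large subunit. Snord73b read 1.92, 4.57 and 2.91 in ε/ε, 5.31, 5.29 and 4.50 for γ1/γ1, and 5.17, 5.43 and 5.48 in wild-type cells. The ε/ε arrays spanned a wide range, and replicate 2 overlapped γ1/γ1. The fall against wild-type was 2.23 (SE 0.53, adjusted p = 0.0373), to a mean below the array medians. Snord73a read 3.31, 5.10 and 4.39 in ε/ε, 5.20, 5.56 and 4.69 for γ1/γ1, and 5.66, 4.93 and 4.28 in wild-type cells, and its difference of -0.68 from wild-type did not pass (SE 0.46, adjusted p = 0.386). All groups overlapped for Snord73a. How far probes for the 2 relatives can tell them apart was not tested. When each array was left out in turn, Snord73b was called in 1 of the 9 fits, that without ε/ε replicate 2, with adjusted p up to 0.130.

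Snord99, a large-subunit C/D guide in the same host as Snora44, read 5.63, 4.80 and 6.25 in ε/ε, 6.96, 6.35 and 5.97 for γ1/γ1, and 6.79, 6.83 and 7.31 in wild-type cells. All ε/ε arrays lay below wild-type and overlapped γ1/γ1. The fall of 1.42 from wild-type (SE 0.36, 2.67-fold lower, adjusted p = 0.0447) was called in 2 of the 9 fits that leave out an array, those without ε/ε replicate 3 or γ1/γ1 replicate 1. Its adjusted p in the others reached 0.144.

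Among the members that did not pass in this comparison, the largest difference, -1.73, belonged to Snord104, a large-subunit guide inside Gm36220. Snord104 read 6.14, 8.47 and 8.13 in ε/ε, 9.05, 9.19 and 9.17 for γ1/γ1, and 9.45, 9.21 and 9.26 in wild-type cells (adjusted p = 0.0585). Its ε/ε arrays were lowest, replicate 1 by far, and without that replicate the difference was -1.01 and passed (adjusted p = 0.0154). The other brightest C/D genes, Snord17, Snord49b and Snord65, and the brightest H/ACA genes, Snora33, Snora23, Snora31 and Snora21, did not pass against wild-type. Snora21, an H/ACA RNA in Rpl23, had the smallest adjusted p of these after Snord17, with 7.13, 7.73 and 7.65 in ε/ε, 7.96, 8.22 and 7.94 for γ1/γ1, and 8.09, 8.13 and 8.06 in wild-type cells (difference -0.59, SE 0.17, adjusted p = 0.0721). The ε/ε arrays of Snora21 were again the lowest of all. Snora31, in Tpt1, read 7.33 to 8.52 in ε/ε and 7.91 to 8.68 in wild-type cells, and these ranges overlapped.

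The 60 differences went both ways. Their median was 0.01 for the members, 0.01 for C/D and -0.14 for H/ACA, against -0.01 for all genes tested, and 30 of the 60 were above 0. The median of the absolute difference was 0.57 for the members and 0.24 for all genes tested, and the median standard error 0.35 and 0.19. On the 3 arrays of each group, 23 of the 60 members did not overlap with wild-type (38.3%, against 28.4% of all genes tested), 7 of them higher in ε/ε (11.8% of all genes tested) and 16 lower (16.6%). An absolute difference of at least 1 was reached by 15 members, 7 higher (1.91% of all genes tested) and 8 lower (2.17%). In the C/D class 3 were at least 1 higher and 6 at least 1 lower, and in the H/ACA class 4 and 2.

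**Figure D2:**
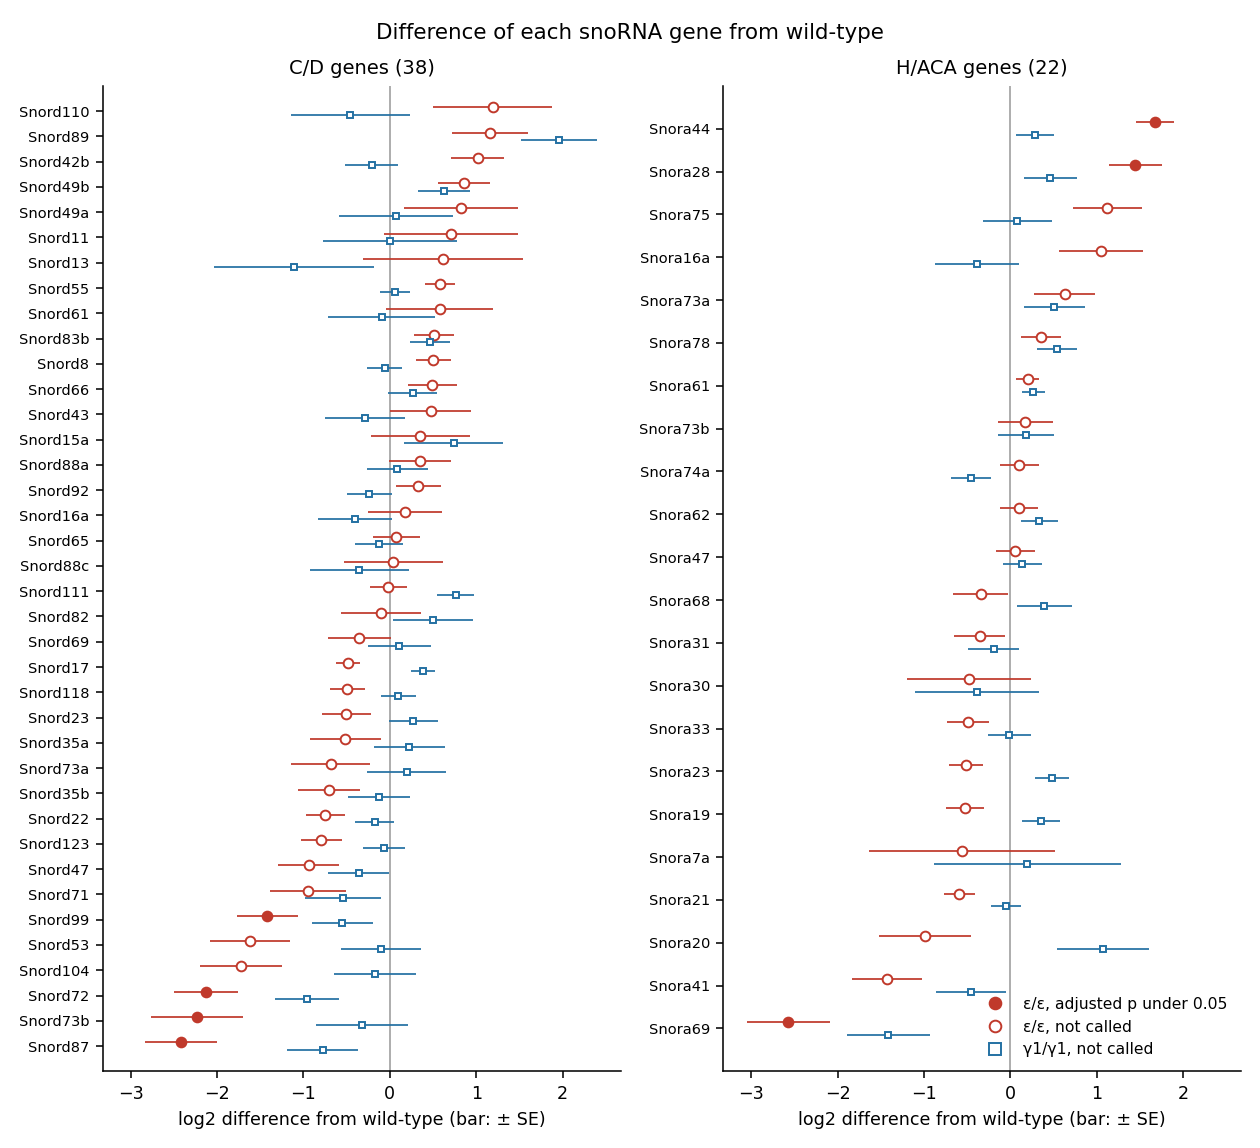
Log2 difference from wild-type (horizontal axis) of every tested snoRNA gene, C/D on the left and H/ACA on the right, in order of the ε/ε difference, with bars for the standard error. Circles are ε/ε, filled for the 7 genes with an adjusted p under 0.05, and squares are γ1/γ1, for which 0 genes passed. The ε/ε differences run from -2.57 to 1.68 and lie on both sides of 0 in both classes.

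In γ1/γ1 cells 0 of the 60 tested members differed from wild-type in limma's test, where 5 of the 12170 genes did (0.0411%). At an unadjusted p under 0.05 there were 7 members, and 6.82% of all genes. Non-overlapping arrays were found for 9 members (15%, against 12.4% of all genes tested). Snord111, which entered the tests only through its γ1/γ1 arrays, is counted among the 7 and the 9. The median difference was 0.03 (C/D -0.08, H/ACA 0.19, all genes -0.02) and the median absolute difference 0.31, against 0.15 for all genes. The 2 comparisons with wild-type share the wild-type arrays.

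The smallest p in this comparison was that of Snord89, which has no enclosing gene. It read 8.32, 7.79 and 8.40 in γ1/γ1, 6.30, 7.18 and 5.15 in wild-type, and 6.95, 7.85 and 7.31 in ε/ε cells. All γ1/γ1 arrays lay above wild-type, whose 3 values were the most scattered of any member in that genotype (SD 1.02). The difference was 1.96 (SE 0.44, adjusted p = 0.364). Snord111, in the splicing factor gene Sf3b3, read 4.28, 3.76 and 3.74 in γ1/γ1, 3.08, 3.59 and 2.81 in wild-type, and 3.21, 3.08 and 3.14 in ε/ε cells. It entered the tests only through its γ1/γ1 arrays, so that its higher γ1/γ1 level is no finding. The next were Snora69 with -1.41 (adjusted p = 0.642), Snord17 with 0.38 (0.657), Snord72 with -0.96 (0.687) and Snora23 with 0.48 (0.709).

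Between ε/ε and γ1/γ1, 3 of the 60 tested members passed (5%, against 2.66% of all genes tested). Snora44 was higher in ε/ε, where 1.02% of all genes were called, and Snord17 and Snora23 were lower, where 1.64% were. Snora44 differed by 1.40 (SE 0.22, 2.63-fold, adjusted p = 0.0121). Snord17, a C/D RNA in the sorting nexin gene Snx5 that guides the large subunit, read 8.88, 8.97 and 9.02 in ε/ε, 9.95, 9.70 and 9.83 for γ1/γ1, and 9.31, 9.42 and 9.59 in wild-type cells. The 3 genotypes did not overlap, with wild-type in between. The ε/ε mean of 8.96 ± 0.07 was lower than the γ1/γ1 mean of 9.82 ± 0.13 by 0.87 on the log2 scale (SE 0.14, 1.82-fold lower, adjusted p = 0.0121), while neither genotype passed against wild-type (ε/ε -0.48, adjusted p = 0.0629). Snora23, a large-subunit H/ACA RNA in the nuclear import gene Ipo7, read 8.56, 8.62 and 7.91 in ε/ε, 9.57, 9.31 and 9.20 for γ1/γ1, and 8.90, 8.94 and 8.80 in wild-type cells. It showed the same order of genotypes, again without overlap, and differed by -0.998 on the log2 scale (SE 0.20, adjusted p = 0.0308). Snora44 and Snord17 were called in all 9 fits that leave out 1 array and Snora23 in 3 of them. With only the 7 arrays of high Xist none of the 3 was called, and Snord110 alone was. The differences were 1.12 for Snora44 (adjusted p = 0.0901), -0.77 for Snord17 (0.0806) and -0.99 for Snora23 (0.108). Of all genes tested, 0.723% were called in that fit.

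The next smallest p-values belonged to members that did not pass. Snord42b, in Rpl23a, read 4.38, 4.35 and 5.58 in ε/ε, 3.32, 3.85 and 3.47 for γ1/γ1, and 3.64, 3.95 and 3.67 in wild-type cells. Its ε/ε arrays lay above both other groups (difference from γ1/γ1 1.23, SE 0.30, adjusted p = 0.0620). Snora19, in Eif3a, differed by -0.88 (adjusted p = 0.0641) and Snord87 by -1.64 (adjusted p = 0.0646). Non-overlapping arrays were found for 20 members (33.3%, against 21.1% of all genes tested). Of these 20, 7 were higher in ε/ε (9.86% of all genes tested) and 13 lower (11.3%). Snord111, which entered the tests only through its γ1/γ1 arrays, is 1 of the 13. The median difference was -0.31 for the members (C/D -0.43, H/ACA -0.18) and -2.8e-05 for all genes tested. Above 0 lay 23 of the 60 members and 6081 of all 12170 genes. A moderated F test over the 3 genotypes passed for 6 members, Snord17, Snord72, Snord87, Snora23, Snora44 and Snora69, where 4.11% of all genes passed.

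Macrophage markers were highest on ε/ε replicate 1, and their part in these results was not tested. Without that array 6 members were called in ε/ε against wild-type, 5 of them among the 7 named above and the sixth Snord104. Of all genes tested, 4.31% were called in that fit. Snord73b, at -1.62 (adjusted p = 0.0755), and Snord99, at -1.45 (0.0906), were no longer called, and the difference of Snord99 was as large as with the array. The 2 genes that rose, Snora44 and Snora28, were highest on ε/ε replicate 1 and lowest on replicate 3, the order of the macrophage sums. Within the ε/ε group, 20 of all tested members were highest on replicate 1 and 26 were lowest on it. Another 21 were highest and 17 lowest on replicate 3. Whether the order in Snora44 and Snora28 is tied to the macrophage sums was not tested. Without replicate 1 Snora44 differed by 1.53 (adjusted p = 0.0143) and Snora28 by 1.09 (0.0422), and Snord87 by -2.06.

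The host genes gave a second reading, by gene name, that the choice of members had not used. Where a host had several probe sets the brightest stood for it. Whether that probe set lies at the snoRNA's own locus was not tested. A tested host was available for 49 members (38 hosts), another 8 members had a host with no probe set of its own, and 5 members had more than 1 enclosing gene. In ε/ε against wild-type, 22 of the 49 members moved in the direction of their host. Across these 49 pairs, which share arrays and, for some, a host, Pearson's r was -0.05 and Spearman's rho -0.15, given as a description. The absolute difference was larger in the snoRNA than in its host for 37 of the 49, with medians of 0.52 and 0.23. In γ1/γ1 against wild-type, where 0 members were called, it was larger for 38 of the 49 (medians 0.34 and 0.19). The median standard error was 0.36 for these members and 0.17 for the hosts. Among the 38 hosts 0 rose and 4 fell (10.5% called, against 6.34% of all genes tested). A probe set placed on a snoRNA cannot tell the freed snoRNA from the intron that carries it.

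The 4 hosts that fell were Snhg3, Snhg6, Rpl37 and Snx5, and in 2 pairs snoRNA and host fell together. Snhg6 read 9.08, 9.19 and 9.05 in ε/ε, 9.51, 9.46 and 9.28 for γ1/γ1, and 9.51, 10.11 and 9.83 in wild-type cells. Its fall of 0.71 (SE 0.17, adjusted p = 0.0354) went with the fall of 2.42 in Snord87. Rpl37 read 3.97, 3.65 and 3.91 in ε/ε, 4.42, 3.92 and 4.27 for γ1/γ1, and 4.30, 4.93 and 4.78 in wild-type cells. It fell by 0.83 (SE 0.20, adjusted p = 0.0390), beside the fall of 2.13 in Snord72, from a level close to the array medians. Snx5 fell by 0.64 (adjusted p = 0.0227) where Snord17 had -0.48. Snhg3 fell by 1.04 (SE 0.19, adjusted p = 0.0153), with 4.34, 4.72 and 4.49 in ε/ε and 5.16, 5.64 and 5.85 in wild-type cells. Its members Snora73a and Snora73b, the U17 RNAs that act in processing of the small-subunit ribosomal RNA, had differences of 0.63 (adjusted p = 0.307) and 0.18 (adjusted p = 0.779), with overlapping arrays. When 1 array was left out, Snhg3 was called in 7 of 9 fits (adjusted p up to 0.0702, lost without wild-type replicate 2 or 3), Snx5 in 5 (up to 0.0811), and Snhg6 and Rpl37 in 3 each (up to 0.127 and 0.150).

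For the other called members the host did not pass. Eif5 differed by -0.12 (adjusted p = 0.654) where Snora28 rose by 1.45. Rpl39 differed by 0.05 (adjusted p = 0.909) where Snora69 fell by 2.57, and Rps3a1 by -0.06 (adjusted p = 0.912) where Snord73b fell by 2.23. The Rpl39 probe set read means of only 4.36 in ε/ε and 4.31 in wild-type cells, not far above the array medians. Ribosomal protein genes have near-identical processed copies elsewhere in the genome, so which copy a host probe set measured is uncertain. A second probe set named Rps3a1 read a mean of 3.04 in ε/ε and 3.41 in wild-type cells, against 10.50 and 10.56 for the brightest, and which sequence each measured was not tested. Of the 38 hosts 11 had more than 1 probe set, and for 6 of these the probe sets differed in the sign of the ε/ε difference. Ipo7 differed by -0.90 from wild-type (SE 0.24, adjusted p = 0.0513), and its difference between ε/ε and γ1/γ1, where Snora23 passed, was -0.58 (adjusted p = 0.211).

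**Figure D3:**
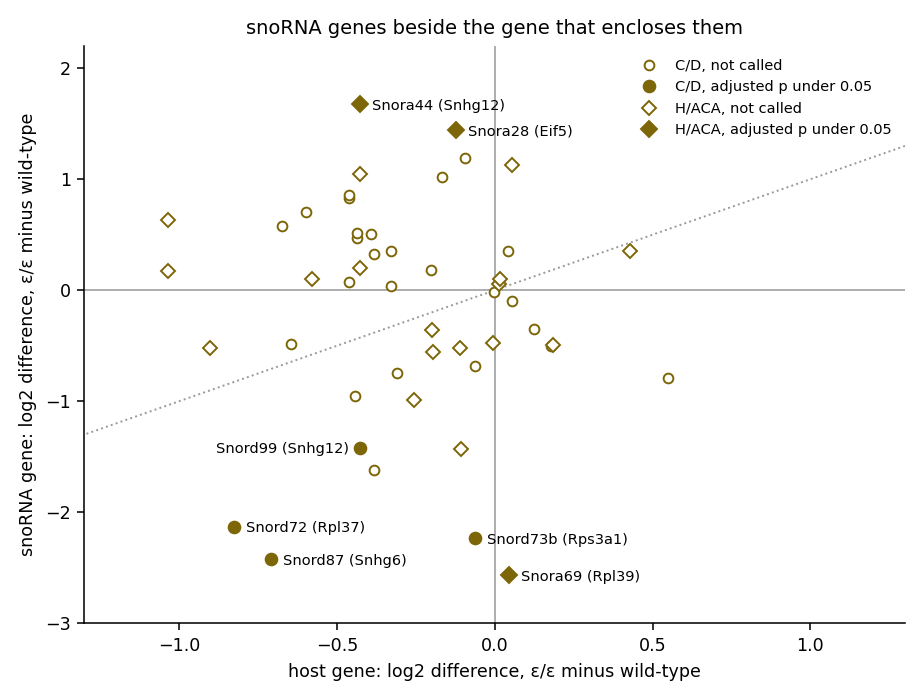
Log2 difference between ε/ε and wild-type of the host gene (horizontal axis) and of the snoRNA gene inside it (vertical axis) for the 49 members with a tested host, circles for C/D and diamonds for H/ACA, filled for snoRNA genes with an adjusted p under 0.05. The dotted line marks equal differences. The 7 filled points lie off it, and the hosts' differences stay between -1.04 and 0.55.

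Members of the same host did not always move alike. Snhg12, a long noncoding RNA gene, holds 4 tested members, and in order of position along the chromosome they were Snora16a, Snora44, Snora61 and Snord99. Snora44 rose by 1.68 and Snord99 fell by 1.42 against wild-type, while Snora61 differed by 0.20 (SE 0.13, adjusted p = 0.393) and Snora16a by 1.05 (SE 0.49, adjusted p = 0.213). Snora16a read 6.47, 5.23 and 3.91 in ε/ε, 3.65, 3.85 and 3.81 for γ1/γ1, and 4.33, 4.01 and 4.12 in wild-type cells. Its ε/ε arrays overlapped wild-type through replicate 3, and replicate 1, the array with the most macrophage signal, was the highest. Without replicate 1 the difference was 0.42 (adjusted p = 0.507), and without replicate 3 it was 1.70 and passed (adjusted p = 0.0218). Snora61 read 5.79, 5.73 and 5.85 in ε/ε, 6.00, 5.73 and 5.84 for γ1/γ1, and 5.48, 5.56 and 5.73 in wild-type cells, the tightest ε/ε group of the 4. Snhg12 itself read 6.28, 6.71 and 7.21 in ε/ε, 7.19, 7.01 and 6.77 for γ1/γ1, and 7.13, 7.15 and 7.20 in wild-type cells, and its difference of -0.43 did not pass (SE 0.22, adjusted p = 0.263). The 4 differences within this host thus spanned 3.09 on the log2 scale, the widest range of the 8 hosts with at least 2 tested members. Snhg12 also holds the most tested members of these hosts, and a range tends to widen with the number of members. Of those 8 hosts 3 held members with differences of both signs.

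**Figure D4:**
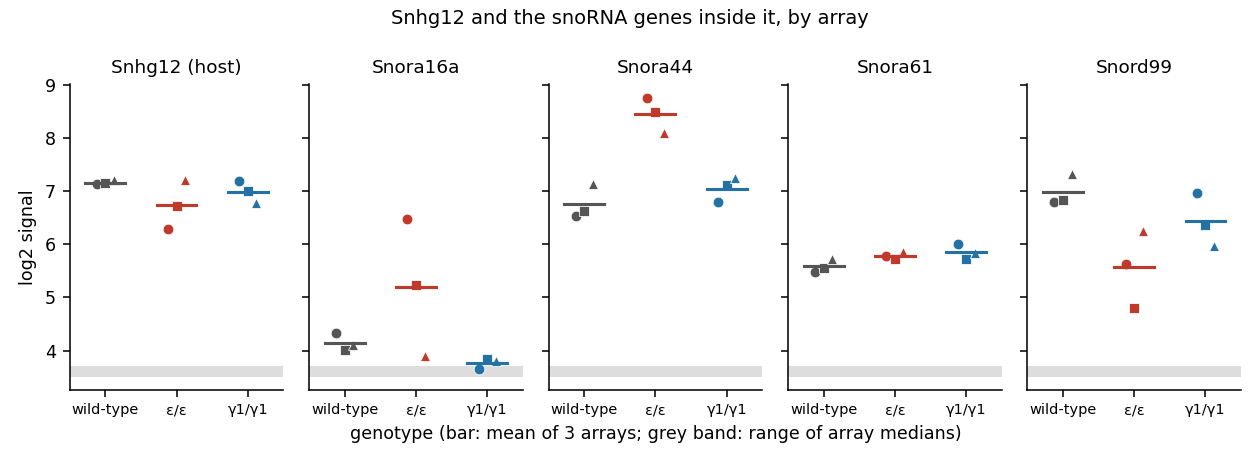
Log2 signal (vertical axis) of the host gene Snhg12 and of the 4 snoRNA genes inside it, in order of position, by genotype (horizontal axis), with 1 point per array, bars at the mean of 3 arrays and a grey band for the range of the array medians. Snora44 is higher and Snord99 lower on the ε/ε arrays than on the wild-type arrays, and the 9 arrays of Snora61 lie between 5.48 and 6.00.

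The host 2410006H16Rik, another noncoding RNA gene, holds Snord49b, Snord49a and Snord65, and none of the 3 passed in any comparison. Snord49b read 8.64, 8.91 and 8.12 in ε/ε, 8.78, 8.53 and 7.66 for γ1/γ1, and 7.44, 7.98 and 7.67 in wild-type cells. Its ε/ε arrays lay above wild-type (difference 0.86, SE 0.30, adjusted p = 0.113). Snord49a differed by 0.83 with a standard error of 0.66, since it ran from 4.39 to 6.70 in ε/ε and from 3.72 to 6.28 in γ1/γ1 cells. Snord65 differed by 0.08 (SE 0.27), with overlap in all groups, and the sign of this small difference turned under 4 alternatives. The host's difference was -0.46 (SE 0.14, adjusted p = 0.0744).

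Other shared hosts gave 2 members each. In Wdr43, which encodes a factor for the small-subunit ribosomal RNA, Snord53 differed by -1.62 (adjusted p = 0.0653) and Snord92 by 0.33 (adjusted p = 0.475). Snord53 read 5.10, 4.84 and 6.83 in ε/ε and 7.02, 7.39 and 7.21 in wild-type cells, without overlap. In Ncl, the nucleolin gene, Snora75 differed by 1.12 (adjusted p = 0.118) and Snord82 by -0.10 (adjusted p = 0.922). In Rpl3, Snord83b and Snord43 differed by 0.51 and 0.47, and neither passed. These genes were chosen for sharing a host.

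The members scattered more between arrays of the same genotype than other genes did. The median SD over 3 arrays was 0.50 in ε/ε, 0.38 for γ1/γ1 and 0.29 in wild-type cells for the 60 tested members. For their hosts it was 0.18, 0.19 and 0.09, and for all genes tested 0.22, 0.20 and 0.17. The widest were Snora7a, an H/ACA RNA in Rpl32, in ε/ε (SD 2.49), Snord13 in γ1/γ1 (1.89) and Snord89 in wild-type cells (1.02). Snora7a read 3.04, 6.40 and 7.90 in ε/ε, 8.32, 5.92 and 5.37 for γ1/γ1, and 6.49, 6.14 and 6.38 in wild-type cells, and Snord13 read 9.10, 7.29 and 5.78, then 3.57, 7.24 and 6.17, then 6.95, 6.44 and 6.93. Neither showed a genotype difference beyond this spread (ε/ε against wild-type -0.56, SE 1.08, and 0.61, SE 0.93). In ε/ε, replicates 1 and 3 were each the farthest from the group mean for 25 of the 60 members, and replicate 2 for 10. The U8 gene Snord118 was steadier than Snora7a and Snord13 in ε/ε (SD 0.22) and γ1/γ1 (0.24), but not in wild-type cells. There its SD was 0.33, against 0.18 for Snora7a and 0.29 for Snord13. Snord118 read 6.10 to 6.53 on the ε/ε arrays, 6.74 to 7.19 on the γ1/γ1 arrays, and 6.51 to 7.16 on the wild-type arrays. It did not pass (ε/ε against wild-type -0.49, SE 0.20, adjusted p = 0.168).

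**Figure D5:**
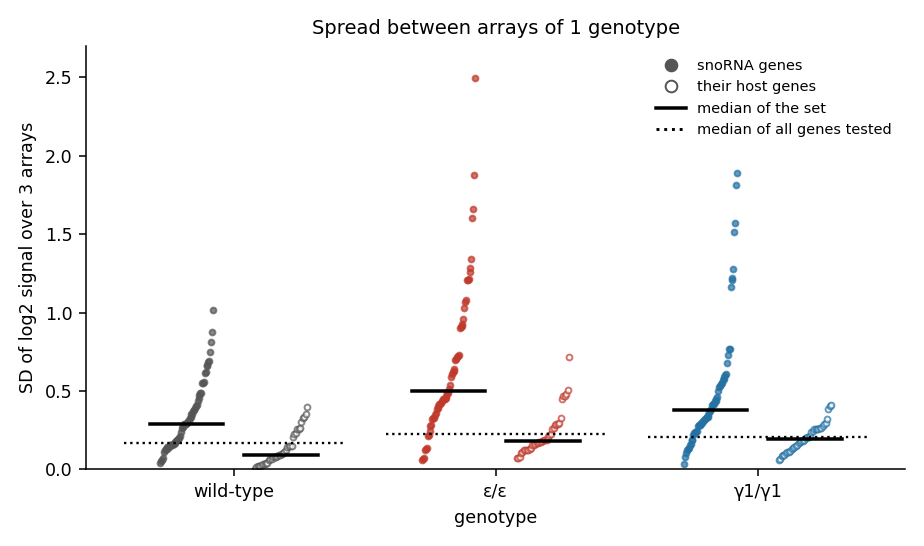
SD of the log2 signal over the 3 arrays of a genotype (vertical axis), by genotype (horizontal axis), filled points for the 60 tested snoRNA genes and open points for their 38 hosts, with solid bars at the medians and a dotted line at the median of all genes tested. In each genotype the snoRNA median (0.50, 0.38 and 0.29) lies above that of all genes (0.22, 0.20 and 0.17).

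A pair of members had 2 probe sets. The brighter one of Snora33, in Rps12, had means of 8.94 in ε/ε, 9.42 for γ1/γ1 and 9.43 in wild-type cells, and the dimmer one 5.94, 6.97 and 7.22, so that both were lowest in ε/ε. With the mean of both in place of the brighter one, Snora33 fell by 0.88 against wild-type (adjusted p = 0.0185), while the brighter one alone had -0.49 (adjusted p = 0.254). The 2 probe sets of Snora19 held identical values on all 9 arrays. Values equal to 6 decimals on 2 or more arrays also occurred within 11 of the 60 tested members, up to 5 arrays in Snora78 at 5.44. Another 43 snoRNA probe sets carried several symbols, 16 of them with Snord116, and were not used.

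The proteins that build and use snoRNAs were read by the same test. Of the C/D core proteins 3 of 4 were tested (Nop56, Nop58 and Snu13) and of the H/ACA core proteins all 4, and 0 passed in any of the 3 comparisons by limma's test. At an unadjusted p under 0.05, 1 gene of each core list did so in ε/ε against wild-type, 0 in γ1/γ1 against wild-type and 1 of each between ε/ε and γ1/γ1. Of all genes tested, 24.8%, 6.82% and 19.9% did so in these comparisons. Nop58, which is also the host of Snord11, read 7.20, 7.76 and 7.63 in ε/ε, 8.09, 7.99 and 7.71 for γ1/γ1, and 8.13, 8.22 and 8.03 in wild-type cells (difference from wild-type -0.60, adjusted p = 0.0710). Nop10 had -0.56 (adjusted p = 0.106), Dkc1 -0.30, Nhp2 0.10, Gar1 0.12, Nop56 -0.09 and Snu13 0.37, none of them past the threshold. Median differences were -0.09 for the C/D core and -0.10 for the H/ACA core, beside -0.01 for all genes tested.

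For the lists that follow, 4.02% of all genes were called lower and 2.33% higher in ε/ε against wild-type. Of the 15 assembly factors tested (16 listed), 1 fell in ε/ε against wild-type: Nvl, an ATPase of ribosome assembly, with 5.71, 5.94 and 6.35 in ε/ε, 6.83, 6.83 and 6.98 for γ1/γ1, and 7.10, 7.37 and 6.98 in wild-type cells. The ε/ε arrays lay below all others, by 1.15 from wild-type (SE 0.18, adjusted p = 0.00842) and by 0.88 from γ1/γ1 (adjusted p = 0.0354) in the means. Of the RNA polymerase I genes 0 of 11 passed in any comparison by limma's test (15 listed). At an unadjusted p under 0.05 there was 1 in each of the 3 comparisons. Of all genes tested, 24.8% (ε/ε against wild-type), 6.82% (γ1/γ1 against wild-type) and 19.9% (ε/ε against γ1/γ1) had such a p. Taf1b and Taf1d, subunits of its promoter factor, had the smallest p in ε/ε against wild-type, with differences of -0.68 (adjusted p = 0.0699) and -0.32 (adjusted p = 0.348). Of 24 ribosomal RNA processing genes tested (25 listed), 1 rose in ε/ε: Nat10, the acetyltransferase of small-subunit ribosomal RNA, by 0.68 (adjusted p = 0.0236). Of the 10 genes tested for opening and trimming of introns and RNA ends (11 listed), 2 fell: the exonucleases Xrn2, by 0.85 (SE 0.15, adjusted p = 0.0123), and Xrn1, by 0.72 (adjusted p = 0.0362). Xrn2, the nuclear enzyme, read 7.45, 7.75 and 7.90 in ε/ε, 8.38, 8.38 and 8.49 for γ1/γ1, and 8.50, 8.66 and 8.48 in wild-type cells. It was also lower in ε/ε than in γ1/γ1, by 0.72 (adjusted p = 0.0352). Dbr1, which opens intron lariats, differed by 0.005 from wild-type (adjusted p = 0.990). Against wild-type, Nvl was called in all 9 fits that leave out 1 array, Xrn2 in 8 (lost without wild-type replicate 2, adjusted p = 0.0596), Nat10 in 5 and Xrn1 in 4. Between ε/ε and γ1/γ1, Nvl was called in 2 and Xrn2 in 1.

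The noncoding host genes, tested for 16 of 20 listed, include 3 that fell in ε/ε against wild-type, where 4.02% of all genes tested did: Snhg3 and Snhg6, described above, and Snhg20, by 0.93 (SE 0.23, adjusted p = 0.0422, called in 1 of the 9 fits that leave out an array). Their median difference was -0.30, against -0.01 for all genes tested, and 0 of them rose. In γ1/γ1 against wild-type 0 genes of these lists passed limma's test, and at an unadjusted p under 0.05 there were 2 ribosomal RNA processing genes, 2 noncoding hosts and 1 RNA polymerase I gene.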

How the data were processed

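Biotin-labelled cDNA from sorted splenic follicular B cells was measured on 9 single-colour arrays. Per the labels' protocols, RNA extracted with TRIzol (54 to 360 ng) went through Nugen PicoWTA amplification, then 3 µg of cDNA through an exon module and 2.5 µg into labelling. How well this captured RNAs of snoRNA length was not tested. Signals of 41345 probe sets came from the deposited table, on a log2 scale as judged from their range, after processing by the authors. The submitters' processing notes name R 3.3.1. How background was corrected and probes were normalized and summarised is not given in the sources used here. Precision is limited by the number of arrays.

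The platform annotation paired 23521 probe sets with 1 symbol, 1814 with several (not used) and left 16010 without a gene here. All genes tested entered 1 limma 3.58.1 fit under R 4.3.3 (1 mean per genotype, 6 residual degrees of freedom, eBayes), with Benjamini-Hochberg adjustment over 12170 genes. Every adjusted p comes from it, and a gene was called at an adjusted p under 0.05. A host is the shortest gene enclosing the snoRNA gene in the GRCm38.p6 table that has a probe set of its own, or else the shortest. All 73 members were found there. That table gave no strand, so a host on the other strand is possible, although the plan asked for the same strand.

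Named members were the called ones (up to 6 each way), the 6 with the smallest p where fewer than 6 passed, the 4 brightest of each class, the 2 genes on either side of the filter, members of hosts with at least 3, Snora69 and Snord87, and their hosts. Of the lists, the core proteins were named, and up to 4 called genes or the 2 with the smallest p of each other list. Snord73a, Snord118, Snord13, Snord110, Snora7a, Snora73a, Snora73b and the pairs in Wdr43, Ncl and Rpl3 were named after their values were seen. Members and lists were chosen with earlier results of these data known. The main fit did not pair arrays by replicate number, and the labels do not say whether the numbers mark pairs. Deviations of same-numbered arrays correlated between -0.09 and 0.16, and of others between -0.07 and 0.08. Such weak correlations cannot settle whether arrays were paired. Alternatives were other normalizations, filters, probe set rules, variance models, samples and thresholds. The fit was tested on simulated data. Plots used matplotlib 3.10.9 (Python 3.11.15).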

Additional observations from a re-analysis of the deposited data

How the results depend on the processing

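Each genotype had 3 arrays, and the counts of called members moved with the samples and the thresholds. The shares of all genes called moved too. For ε/ε against wild-type the count of 7 became 11 with a filter at percentile 75 (46 members tested), 4 with only the 6 arrays compared, and 16 at an adjusted p under 0.1. Of all genes tested, 14.8%, 3.48% and 13.4% were called in these settings, against 6.34% in the main fit. Leaving out 1 array at a time gave 1 to 9, the lowest when wild-type replicate 2 or replicate 3 was missing. For γ1/γ1 against wild-type it stayed at 0 in every alternative. For ε/ε against γ1/γ1 the count of 3 became 5 with the filter at percentile 75, 0 with only the 6 arrays compared, 1 with only the 7 arrays of high Xist, 9 at an adjusted p under 0.1 and 1 with an absolute log2 difference of at least 1. The shares of all genes called in these settings were 6.5%, 0.46%, 0.723%, 6.6% and 1.42%, against 2.66% in the main fit. Leaving out 1 array gave 2 to 7, with 5 without ε/ε replicate 2 and 7 without ε/ε replicate 3. In the fits without ε/ε replicate 2 or 3, 2.71% and 2.37% of all genes were called. With the replicate number as a block the counts were 7 (6 of them the same genes), 0 and 4 (Snord87 was added). Snord99 was lost from the 7 at an adjusted p of 0.0517. Of all genes tested, 5.49%, 0% and 1.95% were called with the block. The cause of these moves was not tested, except that fewer arrays or genes enter some of the fits. The difference of Snord65 between ε/ε and wild-type, 0.08, reversed to -0.076 with array weights, -0.157 without ε/ε replicate 1, -0.077 without wild-type replicate 1 and -0.157 with the 7 arrays of high Xist, and leaving out 1 array gave values from -0.157 to 0.37. Over the single genes named and their alternatives, 693 values kept their direction and side of the threshold, 138 lost the call, 21 gained it and 4 reversed. Quantile normalization turned the split of all genes called in ε/ε against wild-type from 283 higher of 772 (36.7%) to 410 of 709 (57.8%), while the members called were 6, 2 higher and 4 lower.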
